A study of Mus musculus with 4 samples.

Results

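Kinesins are motor proteins that walk along microtubules, and 41 kinesin motor genes were found among the 112302 entries measured in mouse testis RNA. A gene was a member when its entry name was KIF or KIFC followed by a number and at most 1 letter, so pseudogene entries and motor genes with other names, such as Cenpe, were not members. All 41 members were matched to GENCODE vM21 by symbol, and 40 reached at least 1 RPKM (read number corrected for gene length and library depth) in at least 1 library. The members were sorted by known role into 14 mitotic kinesins, 16 transport kinesins, 5 kinesins of spermatids and motile cilia, and 6 with another role. The libraries came from BALB/C mice with no treatment or engineered allele named, at embryonic days 14 (E14) and 18 (E18) and at 3 weeks and 6 months after birth. The RNA was bought as tissue RNA, and the number of animals behind each sample is not given in the sources used here. Where 4 levels are listed in a row, they are in order of stage. Each stage had 1 library, so "higher" and "lower" describe differences between libraries, and no p-value was computed. In bulk RNA of this kind, fewer cells of a type and less RNA per cell cannot be told apart.

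A kinesin has a motor domain that hydrolyses ATP and moves along the microtubule, or in some subfamilies takes tubulin off its ends. Mitotic kinesins build the bipolar spindle, align chromosomes and complete the division of the cell. Transport kinesins carry vesicles, organelles and ciliary parts, often as complexes with light chains or adaptors. In the testis, spermatogonia and spermatocytes divide, and the haploid spermatid then builds a flagellum and a manchette of microtubules around its nucleus, so different kinesins are known from different steps.

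The labelled tissue was checked with fixed markers. From E14 to 6 months, in order of stage, the summed RPKM of 6 Sertoli cell markers was 6.38, 32.4, 16.0 and 8.85, and Fshr was listed at 0 at E14. Most of the E14 sum was Sox9 (4.00, and 2.12 at E18) and Wt1 (1.64, and 7.95 at E18). Amh, Dhh and Gata4 had 0.262, 0.239 and 0.237 RPKM at E14, against 11.4, 7.64 and 2.13 at E18. For 5 Leydig cell markers the sums were 8.02, 126, 64.0 and 552. Markers of other tissues were high in the fetal libraries: 5 liver markers summed to 297 and 58.1 RPKM at E14 and E18, 5 skeletal muscle markers to 188 and 24.8, and 10 neuronal markers to 64.0 and 11.2, while 5 kidney tubule markers summed to 1.30 and 30.4. In the later libraries the liver, muscle and kidney sums each lay at or below 1.84, while the neuronal sum was 13.5 at 3 weeks and 12.1 at 6 months, slightly above that at E18. Most of it was Tubb3, at 5.74, 11.6 and 9.97 RPKM from E18 on. Map2 had 1.22, 0.628 and 1.63 RPKM from E18 on, and Elavl3 0.187, 0.710 and 0.174. Snap25, Syt1, Nefl, Nefm, Gap43, Stmn2 and Dcx lay at or below 0.167 RPKM after birth, against 0.0903 to 1.31 at E18. The depth behind the RPKM values ranged from 33952471 reads at 3 weeks to 38903334 at E14.

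Promoter sequences are shown first for the members on which the results turn, since mitotic kinesins are textbook targets of a cell cycle element called CHR (TTTGAA), often found with CCAAT boxes, and spermatid genes of the CRE element (TGACGTCA). RefSeq promoters on GRCm38.p6, from 250 bases before to 50 after each start, were matched for 33 of the 41 members, and each motif was searched on both strands. Kif13b, Kif19a, Kif20a, Kif21b, Kif5a, Kif5b, Kifc2 and Kifc3 had none in the table. Capitals mark TTTGAA or its reverse complement TTCAAA, and CCAAT or its reverse complement ATTGG, in the mitotic members.
Kif11, chr19:37376282-37376381, plus strand: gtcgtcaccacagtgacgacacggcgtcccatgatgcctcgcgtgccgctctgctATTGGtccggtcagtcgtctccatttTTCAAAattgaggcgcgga
Kif15, chr9:122950981-122951075, plus strand: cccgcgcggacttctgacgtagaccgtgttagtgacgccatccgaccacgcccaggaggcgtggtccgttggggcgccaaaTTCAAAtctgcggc
Kif14, chr1:136467613-136467762, plus strand: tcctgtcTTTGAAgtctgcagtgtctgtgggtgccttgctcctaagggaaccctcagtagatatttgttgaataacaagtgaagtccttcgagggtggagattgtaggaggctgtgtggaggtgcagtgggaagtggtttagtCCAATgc
Kif2c, chr4:117178783-117178882, minus strand: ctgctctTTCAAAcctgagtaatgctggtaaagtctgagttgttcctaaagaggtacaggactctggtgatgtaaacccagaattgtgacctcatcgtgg
Kifc1, chr17:33890634-33890733, minus strand: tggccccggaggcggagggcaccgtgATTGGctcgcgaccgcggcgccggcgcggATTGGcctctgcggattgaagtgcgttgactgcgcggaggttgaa
Kifc5b, chr17:26916991-26917090, plus strand: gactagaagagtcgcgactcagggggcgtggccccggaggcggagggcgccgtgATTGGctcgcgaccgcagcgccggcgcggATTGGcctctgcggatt
In the next 2 sequences capitals mark the CRE, and in Kif2b, a single-exon gene with the highest level of any member, CCAAT and TGACG, the shorter core of the CRE.
Kif17, chr4:138262151-138262250, plus strand: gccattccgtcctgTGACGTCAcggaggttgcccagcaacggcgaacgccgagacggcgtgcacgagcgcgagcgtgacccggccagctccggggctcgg
Kif5c, chr2:49619186-49619285, plus strand: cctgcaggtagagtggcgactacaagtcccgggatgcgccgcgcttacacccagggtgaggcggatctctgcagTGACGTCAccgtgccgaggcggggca
Kif2b, chr11:91577556-91577655, minus strand: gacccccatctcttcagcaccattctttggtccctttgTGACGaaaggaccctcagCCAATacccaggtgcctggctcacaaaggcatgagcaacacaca

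The CHR letters were a shared feature of the mitotic group that the choice of members had not used. They occurred in 11 of 13 mitotic kinesins with a promoter (84.6%), against 20.2% of 27025 genes with a promoter of that length. In the other groups they occurred in 1 of 10 transport kinesins (Kif1a), 1 of 4 spermatid and cilium kinesins (Kif27) and 1 of 6 with another role (Kif26b). In Kif26b they began 9 bases before the start, with a CCAAT box 73 bases before. In Kif11 and Kif15 the element began 19 bases before the start. In Kif14 and Kif2c it began 228 and 103 bases before. Kif22 held it at 215 and at 17 bases before, and Kif15 also at 234. In Kif23, Kif18b, Kif20b, Kifc1, Kifc5b and Kif4 the letters were found only after the start. The RefSeq starts of Kif14, Kif2c and Kif17 lie inside the GENCODE genes, so their windows are not upstream of the whole annotated gene. The same holds for Kif4, for Kif27 and for the start of Kif1a whose window holds the CHR letters. By shorter distances it also holds for other members, among them Kif15, Kif22 and Kifc1. Of the printed bases of Kif15 and Kifc1, 30 and 28 lie in annotated exons of the gene, including the printed TTCAAA of Kif15. The mitotic members without these letters in the window were Kif18a and Kif2b. CCAAT was present in 9 of the 13 mitotic genes (69.2%) against 41.1% of all genes, and 8 of the 13 held both motifs. The full CRE was present in 3 members, Kif17, Kif5c and Kif18a, against 2.03% of all genes, beginning 86 bases before the start of Kif17 and 26 before that of Kif5c. The core TGACG, which every CRE contains, was present in 16 of 33 members (48.5%) against 23.0% of all genes, and by role in 8 of 13 mitotic, 6 of 10 transport and 1 of 4 spermatid and cilium kinesins. The X-box core GTTGCC was present in 10 of the 33 members (30.3%) against 14.1% of genes, and the MYB site CAGTTG in 3 (9.09%) against 15.4%. These matches describe letters in a window. Kifc1 and Kifc5b count as separate genes here, although their promoters were 94.7% identical over 262 aligned bases.

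**Figure D1:**
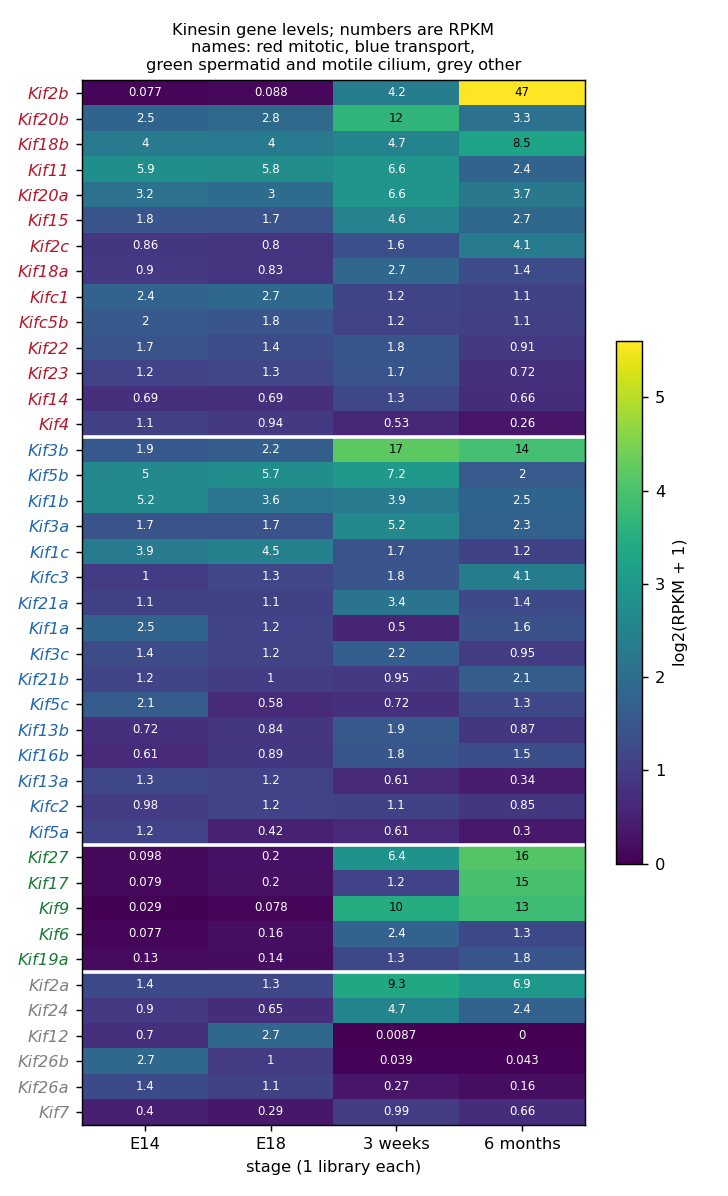
Levels of the 41 kinesin genes at the 4 stages, with rows grouped by role, colour for log2(RPKM + 1) and the RPKM written in each cell. The spermatid and motile cilium rows are dark in both fetal columns and bright after birth, and Kif2b at 6 months (47.4 RPKM) is the brightest cell.

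Spindle and general transport motors led the family in the fetal libraries, and its leading members were different ones after birth. The summed level of all 41 members was 68.0 RPKM at E14 and 64.5 at E18, then 138 at 3 weeks and 174 at 6 months. The leading member at E14 was Kif11 (5.89 RPKM), followed by Kif1b (5.23) and Kif5b (4.99). At E18 Kif11 (5.83) and Kif5b (5.70) led, with overlapping counting intervals, and Kif1c followed (4.52). At 3 weeks the first 3 were Kif3b (17.1), Kif20b (11.7) and Kif9 (10.0), and at 6 months Kif2b (47.4), Kif27 (16.1) and Kif17 (14.7). The stage of the highest level was E14 for 9 members, E18 for 4, 3 weeks for 19 and 6 months for 9. No such count was made over all entries, so whether these numbers differ from the background was not tested. The entries that reached 1 RPKM numbered 22135, 23658, 33267 and 29669, which was also most at 3 weeks.

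Differences between adjacent stages were taken as log2(RPKM + 1) at the later minus the earlier stage, called at 2-fold on that scale, which understates the change of low genes. Between E14 and E18, 1 of 40 measured members was higher, against 2.17% of all 42964 measured entries and 3.54% of the 12672 measured protein-coding symbols, and 0 were lower, against 1.34% and 1.63%. With a pseudocount of 0.1 the counts were 1 and 4, against 7.46% and 4.12% of all entries. Between E18 and 3 weeks, 13 members were higher, against 32.0% of all entries and 24.1% of protein-coding symbols, and 2 were lower, against 10.5% and 13.2%. The family's median was 0.38, that of all entries 0.46 and that of protein-coding symbols 0.23. The share of higher members, 13 of 40, was near that of all entries and above that of protein-coding symbols. That of lower members, 2 of 40, was under both. Rescaling over ribosomal protein genes gave 22 higher and 1 lower, against 51.2% and 2.95% of all entries. The median of ratios gave 8 higher and 2 lower, against 25.5% and 13.0%. Between 3 weeks and 6 months, 3 members were higher, against 9.73% of all entries and 9.55% of protein-coding symbols, and 3 were lower, against 14.1% and 7.86%, with a median of -0.27 for the family and -0.31 for all entries. In that last comparison the median of ratios gave 9 higher and 0 lower, against 17.2% and 4.35% of all entries. Leaving E14 out of the filter on low values changed none of these counts of higher and lower members. All 22 calls had an exact 95% counting interval of the read ratio that excluded 1, which covers counting error only.

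**Figure D2:**
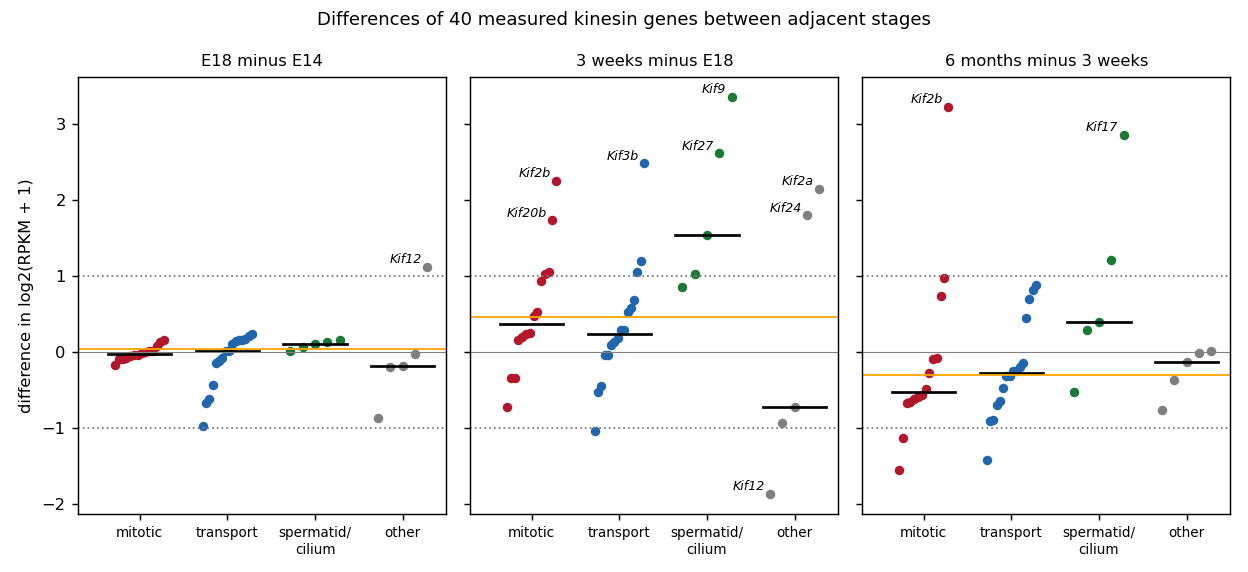
Differences in log2(RPKM + 1) between adjacent stages for the 40 measured kinesins, by role, with black bars at role medians, an orange line at the median of all measured entries and dotted lines at 2-fold. From E18 to 3 weeks the spermatid and cilium kinesins have a median of 1.54. The mitotic and transport medians (0.36 and 0.23) lie under the orange line (0.46), and the median of protein-coding symbols is 0.23.

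Kinesins of spermatids and motile cilia had the lowest levels of any role group before birth and the second highest sum at 6 months. That rank rests on Kif2b: the mitotic sum at 6 months was 78.4 RPKM with it and 30.9 without it. Without Kif2b the spermatid and cilium sum was the highest, with transport kinesins at 37.7. Together the 5 spermatid and cilium genes had 0.409 RPKM at E14 and 0.775 at E18, then 21.2 at 3 weeks and 47.5 at 6 months. These were 0.602%, 1.20%, 15.4% and 27.3% of the family's summed level. At 3 weeks 4 of the 5 were higher than at E18 and 0 lower, and at 6 months 2 were higher than at 3 weeks and 0 lower. Of all entries, 32.0% were higher and 10.5% lower in the first of these steps and 9.73% higher and 14.1% lower in the second. Of protein-coding symbols, 24.1% were higher and 13.2% lower in the first step and 9.55% higher and 7.86% lower in the second. In the same libraries the summed RPKM of 8 spermatocyte markers was 1.95, 6.56, 589 and 349, with 8 of 8 higher at 3 weeks, and that of 8 spermatid markers 2.06, 2.81, 92.6 and 6125, with 7 of 8 higher at 6 months. The part of cell composition in these rises was not tested.

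Kif9, a motor of the sperm flagellum's central apparatus, had 0.0285 RPKM at E14 and 0.0778 at E18, then 10.0 at 3 weeks and 13.5 at 6 months. Its difference from E18 to 3 weeks, 3.35, was the largest of any member in that comparison, at a read ratio of 129 (interval 73.5 to 250), on 12 reads at E18. Both postnatal libraries thus stood far above both fetal ones. Kif27, a relative of the hedgehog regulator Kif7 that is linked to motile cilia, had 0.0979, 0.203, 6.37 and 16.1 RPKM. It was higher in each postnatal step, by 2.61 and 1.21 on the log2 scale. Kif6, named for a role in motile cilia, had 0.0769, 0.160, 2.37 and 1.34 RPKM, and Kif19a, which trims the tips of ciliary microtubules, had 0.126, 0.136, 1.31 and 1.83. Kif6 and Kif19a were higher at 3 weeks (1.54 and 1.02) and not past 2-fold at 6 months (-0.53 and 0.29). Under the median of ratios the difference of Kif19a to 3 weeks was 0.82 and no longer past 2-fold.

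Kif17, the homodimeric kinesin-2 motor, was called higher at 6 months and not at 3 weeks. Its levels were 0.0791 RPKM at E14 and 0.198 at E18, then 1.17 at 3 weeks and 14.7 at 6 months, and each library stood above the one before. The difference from 3 weeks to 6 months was 2.86, a read ratio of 12.6 (interval 11.1 to 14.3), while that from E18 to 3 weeks was 0.86, just under the 2-fold limit, at a read ratio of 5.91 (4.28 to 8.33). With a pseudocount of 0.1, or rescaled over ribosomal protein genes, Kif17 was also called higher at 3 weeks. Kif17 is known to move the coactivator Fhl5 (ACT) out of the nucleus of round spermatids, where Fhl5 works with the transcription factor Crem at CRE sites. Fhl5 had 0.0878, 0.524, 1.21 and 37.7 RPKM and was higher at 6 months than at 3 weeks (4.13), with differences of 0.49 and 0.53 in the earlier steps that did not pass 2-fold. Crem had 0.548, 0.879, 9.30 and 13.1 RPKM and was higher at 3 weeks (2.45) and not past 2-fold at 6 months (0.46).

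Kif2b, a kinesin-13 that depolymerizes microtubules and acts at kinetochores in mitosis, stood apart from the other mitotic members. It had 0.0774 RPKM at E14 and 0.0880 at E18, then 4.18 at 3 weeks and 47.4 at 6 months, from 7 reads in each fetal library to 3947 at 6 months. The difference was 2.25 from E18 to 3 weeks and 3.22 from 3 weeks to 6 months, the largest of the family in the last comparison (read ratio 11.3, interval 10.1 to 12.7). The gene lies at chr11:91575315-91577558 on the minus strand and was the 1 member annotated with a single exon. The related kinesin-13 Kif2a, which acts at spindle poles and in neurons, had 1.37, 1.33, 9.27 and 6.90 RPKM and was higher at 3 weeks (2.14). Kif2c, the kinetochore kinesin-13 also called MCAK, had 0.860, 0.798, 1.59 and 4.06 RPKM, with differences of 0.53 and 0.97 after birth that did not pass 2-fold. Of these 3 genes, Kif2a was highest at 3 weeks and both others at 6 months.

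**Figure D3:**
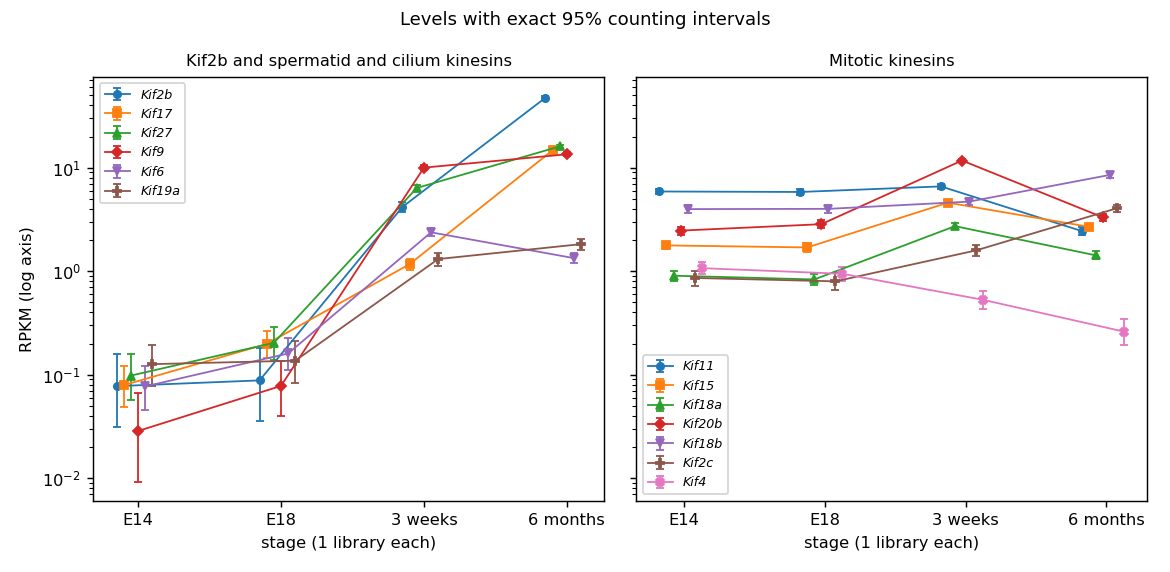
RPKM on a log axis at each stage with exact 95% counting intervals, for Kif2b and the 5 spermatid and cilium kinesins (left) and for 7 mitotic kinesins (right). The left-hand genes lie at or under 0.203 RPKM in both fetal libraries and above 1 after birth, while the right-hand genes stay within 0.261 to 11.7 RPKM throughout.

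The mitotic kinesins other than Kif2b were steady across the fetal libraries, were at their summed maximum at 3 weeks and differed among themselves after birth. Over 13 genes, a grouping made after their values were seen, the sum was 28.1 RPKM at E14 and 27.8 at E18, then 46.4 at 3 weeks and 30.9 at 6 months. With Kif2b the sums were 28.2, 27.9, 50.6 and 78.4 RPKM. Between E14 and E18, 0 of the 14 mitotic members passed 2-fold. From E18 to 3 weeks 4 were higher and 0 lower, against 32.0% and 10.5% of all entries, with a median of 0.36 (0.25 without Kif2b) beside 0.46 for all entries. From 3 weeks to 6 months 1 was higher, Kif2b, and 2 were lower, against 9.73% and 14.1%, with a median of -0.53 beside -0.31 for all entries. Of protein-coding symbols, 24.1% were higher and 13.2% lower from E18 to 3 weeks, with a median of 0.23, under the mitotic one. From 3 weeks to 6 months their values were 9.55%, 7.86% and -0.22. The 8 proliferation markers summed to 53.6, 45.5, 52.1 and 39.5 RPKM, with 1 higher and 1 lower at 3 weeks and 0 higher and 2 lower at 6 months.

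Kif20b, a kinesin-6 of cytokinesis, had the widest swing among those 13 genes. Its levels were 2.47, 2.85, 11.7 and 3.32 RPKM, so the 3-week library stood above the other 3. It was higher at 3 weeks by 1.73 and then lower by 6 months, with a difference of -1.56, which was -0.97 and not past 2-fold under the median of ratios. The kinesin-12 Kif15, which backs up Kif11 in keeping the spindle bipolar, had 1.77, 1.70, 4.59 and 2.69 RPKM, and the kinesin-8 Kif18a, which limits chromosome oscillation, had 0.905, 0.832, 2.73 and 1.42. Both were higher at 3 weeks (1.05 and 1.02), just past the limit, and neither was past 2-fold afterwards (-0.60 and -0.62). Under the median of ratios both differences to 3 weeks were 0.78, under the limit. The kinesin-6 Kif20a had the same order of stages, at 3.23, 2.96, 6.55 and 3.75 RPKM, with a difference of 0.93 to 3 weeks that lay just under the limit.

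Kif11, the kinesin-5 that pushes spindle poles apart, was nearly level at 5.89, 5.83 and 6.60 RPKM in the first 3 libraries and lower at 6 months, at 2.45 RPKM (-1.14). This difference was -0.59 under the median of ratios and -0.87 over ribosomal protein genes, in both cases no longer past 2-fold. Kif18b, which shortens astral microtubules, went the other way, with 3.98, 4.00, 4.70 and 8.52 RPKM and a last difference of 0.74. The chromosome-arm motor Kif22 had 1.72, 1.42, 1.83 and 0.907 RPKM. The midbody motor Kif23 had 1.18, 1.29, 1.73 and 0.721 RPKM, and the cytokinesis motor Kif14 had 0.692, 0.689, 1.33 and 0.662. Each had its highest value at 3 weeks without passing 2-fold in any comparison. For Kif22 the counting interval at 3 weeks (1.52 to 2.17) overlapped that at E14 (1.44 to 2.03). Its read ratio from E18 to 3 weeks had an interval of 0.986 to 1.69, which includes 1.

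Kif4, a chromokinesin of chromosome condensation and the central spindle, was the 1 X-linked member, at chrX:100625737-100727214. Its levels were 1.07 RPKM at E14 and 0.944 at E18, then 0.529 at 3 weeks and 0.261 at 6 months, and its read ratio was 0.560 from E18 to 3 weeks (interval 0.434 to 0.719) and 0.493 from 3 weeks to 6 months (0.346 to 0.696). On the log2(RPKM + 1) scale neither passed 2-fold (-0.35 and -0.28). The minus-end motors Kifc1 (2.39, 2.71, 1.24 and 1.11 RPKM) and Kifc5b (1.95, 1.80, 1.21 and 1.09) were also lowest at 6 months. Kifc1 is known for clustering spindle poles and for shaping the spermatid nucleus and acrosome. Together with Kif4 they were the mitotic members with lower values in both postnatal libraries than in both fetal ones. Values of Kifc1 and Kifc5b are uncertain, since their longest transcripts were 98.0% identical over 2298 aligned bases and 39.7% and 37.4% of their 50-base words occurred in other genes.

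Transport kinesins had 31.9, 28.7, 50.7 and 37.7 RPKM in sum, and their share of the family was 47.0%, 44.6%, 36.8% and 21.7%. From E14 to E18, 0 of 16 passed 2-fold. At 3 weeks 3 were higher and 1 lower, against 32.0% and 10.5% of all entries, with a median of 0.23 beside 0.46. At 6 months 0 were higher and 1 lower, against 9.73% and 14.1%, with a median of -0.29 beside -0.31 (0.07 for transport kinesins under the median of ratios). Of protein-coding symbols, 24.1% were higher and 13.2% lower at 3 weeks, with a median of 0.23, level with the transport one. At 6 months their values were 9.55%, 7.86% and -0.22.

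The heterotrimeric kinesin-2 motor, which carries cargo along the axoneme, accounts for the largest transport level. Its subunit Kif3b had 1.91, 2.24, 17.1 and 14.2 RPKM, its partner Kif3a 1.68, 1.70, 5.18 and 2.32, and the alternative partner Kif3c 1.41, 1.22, 2.18 and 0.950. Kif3b and Kif3a were higher at 3 weeks (2.48 and 1.19), and Kif3c was not past 2-fold (0.52). Under the median of ratios the value of Kif3a was 0.91 and no longer a call. By RPKM, which is per length, the level of Kif3b was above that of Kif3a in each library, with overlapping counting intervals at E14. The adaptor Kifap3, which completes the complex, had 4.63, 3.89, 10.5 and 34.4 RPKM and was higher in both postnatal steps (1.24 and 1.62), the second of which Kif3a and Kif3b did not share (-0.89 and -0.25, neither past 2-fold). The first of the differences of Kifap3 was 0.93 under the median of ratios. Kif3c values are uncertain, because 35.3% of its annotated exonic bases overlap the antisense gene 1110002L01Rik.

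Kinesin-1, the main anterograde motor, is built from Kif5 heavy chains and Klc light chains. Kif5b, the ubiquitous heavy chain, had 4.99, 5.70, 7.15 and 2.04 RPKM and was lower at 6 months than at 3 weeks (-1.43). Under the median of ratios that difference was -0.88. The neuronal heavy chains Kif5a (1.19, 0.421, 0.610 and 0.295 RPKM) and Kif5c (2.10, 0.577, 0.722 and 1.33) were highest at E14. Light chains differed in their order of stages. Klc1, a light chain abundant in neurons, had 7.28, 5.35, 1.90 and 0.768 RPKM and was lower at 3 weeks (-1.13), while Klc2 had 0.417, 0.537, 2.09 and 1.32 and was higher at that step (1.01). Neither call was kept under every scaling: Klc1 had -0.93 after rescaling to an equal sum and -0.31 over ribosomal protein genes, and Klc2 had 0.78 under the median of ratios. Klc3, a light chain known from the sperm tail, had 1.01, 1.07, 1.32 and 4.55 RPKM and was higher at 6 months (1.26). Klc4 had 1.37, 2.48, 1.55 and 2.13 RPKM and passed 2-fold in no comparison.

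**Figure D4:**
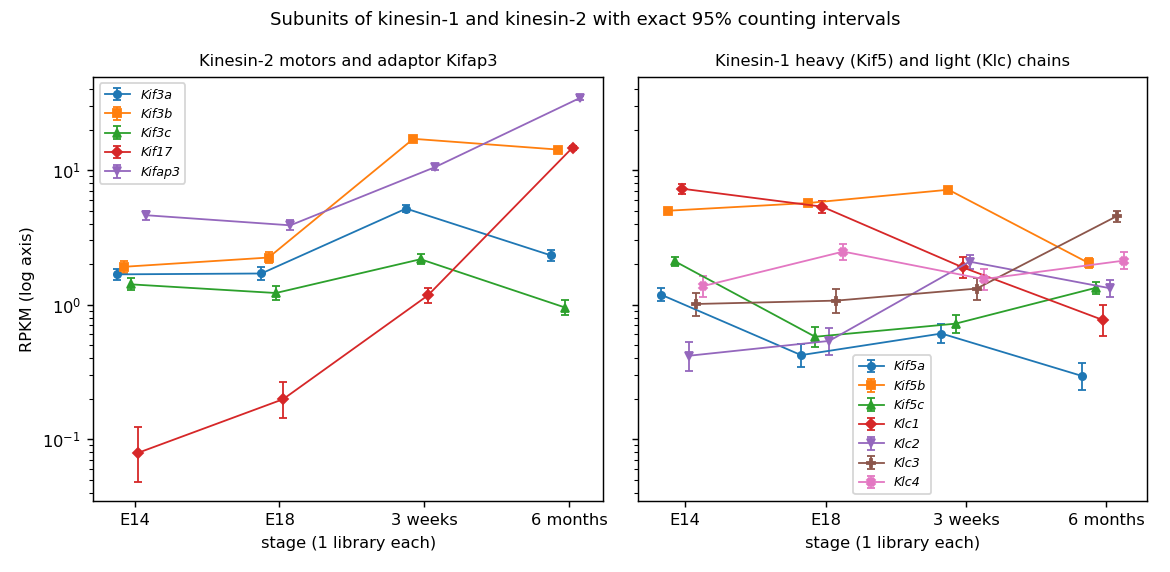
RPKM on a log axis with exact 95% counting intervals for kinesin-2 motors with the adaptor Kifap3 (left) and for kinesin-1 heavy and light chains (right). On the left Kif17 and Kifap3 end highest at 6 months (14.7 and 34.4 RPKM, with Kif3b at 14.2), and on the right Klc1 goes from the highest level at E14 to under 1 RPKM at 6 months while Klc3 ends highest.

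Among the transport kinesins, whose median from E14 to E18 was 0.01, Kif5c, Kif5a and Kif1a are described here, a choice made after their values were seen. None of the 3 passed 2-fold with the pseudocount of 1. Kif5c had a difference of -0.98 and was 3.64 times lower by reads (interval 3.03 to 4.41), the nearest to the limit. Kif5a (-0.62) was 2.82 times lower (2.25 to 3.56) and Kif1a (-0.68), the synaptic vesicle motor, 2.12 times lower (1.86 to 2.41). With a pseudocount of 0.1 these 3 genes and Kif26b were called lower, and under the median of ratios Kif5c was. Neuronal markers were lower in the same comparison in 4 of 10 cases, with 0 higher, and summed to 64.0 and 11.2 RPKM, and the part of nerve tissue in these differences was not tested. After birth Kif1a stood at 0.496 RPKM (3 weeks) and 1.63 RPKM (6 months), and its difference of 0.81 in that step did not pass 2-fold.

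Of the other vesicle motors, Kif1c, a motor of dense-core vesicles and Golgi traffic, had 3.92, 4.52, 1.69 and 1.15 RPKM and was the transport member lower at 3 weeks (-1.04). It was not past 2-fold after rescaling to an equal sum (-0.84) or over ribosomal protein genes (-0.24). Kif1b, which carries mitochondria and synaptic vesicle precursors, had 5.23, 3.60, 3.87 and 2.51 RPKM. Kif21a, a regulator of microtubule growth, had 1.14, 1.15, 3.43 and 1.36 RPKM and was higher at 3 weeks (1.04, or 0.78 under the median of ratios), while its relative Kif21b had 1.24, 1.01, 0.946 and 2.14. Kifc3, a minus-end motor of cell junctions, had 0.996, 1.30, 1.80 and 4.15 RPKM, with a last difference of 0.88. The remaining transport members (Kif13a, Kif13b, Kif16b and Kifc2) lay between 0.344 and 1.94 RPKM in every library and passed 2-fold in no comparison.

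Among kinesins with another role, Kif12 was the member that was higher at E18 than at E14. It had 0.704 RPKM at E14 and 2.69 at E18, then 0.00868 at 3 weeks (1 read) and 0 at 6 months, where 3 reads would give 0.0247. The difference to E18 was 1.12, a read ratio of 3.83 (interval 3.03 to 4.88), and fell under 2-fold when rescaled over ribosomal protein genes (0.84). That to 3 weeks was -1.87, at a read ratio of 0.00322 (8.13e-05 to 0.0181). Kif12 is known from kidney tubules and liver bile ducts, and the 5 kidney tubule markers, of which 5 were higher at E18 and 5 lower at 3 weeks, summed to 1.30, 30.4, 1.15 and 1.84 RPKM. The 5 liver markers, with 0 higher and 3 lower at E18, went from 297 to 58.1 RPKM. Other lists also had members higher at E18, 4 of 5 for bladder urothelium, 5 of 6 for Sertoli cells and 5 of 5 for Leydig cells. The part of any of these tissues in the level of Kif12 was not tested.

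Kif26b and Kif26a, atypical kinesins without motor activity that act in developmental signalling, had lower levels in both postnatal libraries than in both fetal ones. Kif26b had 2.67, 1.00, 0.0388 and 0.0435 RPKM, with differences of -0.88 and -0.95 in the first 2 steps, and its reads were 25.8 times lower at 3 weeks than at E18 (interval 14.2 to 52.2). Kif26a had 1.39, 1.11, 0.272 and 0.162 RPKM. Neither passed 2-fold on the log2(RPKM + 1) scale. Kif24 had 0.899, 0.651, 4.73 and 2.38 RPKM and was higher at 3 weeks (1.79). Kif7, the hedgehog regulator at the tip of the cilium, stayed under 1 RPKM in every library, at 0.403, 0.293, 0.995 and 0.657, and was the 1 member that did not enter the comparisons.

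The partner genes of these motors were taken from a fixed list of adaptors, light chains, spindle partners and related motors, of which 22 were measured. The list also held Fhl5 and Crem, described above with Kif17. Crem is among those higher at 3 weeks and Fhl5 among those higher at 6 months. From E14 to E18, 0 were higher and 0 lower. At 3 weeks 6 were higher and 2 lower, against 32.0% and 10.5% of all entries, with a median of 0.50 beside 0.46. At 6 months 3 were higher and 1 lower, against 9.73% and 14.1%, with a median of -0.33 beside -0.31. The medians of protein-coding symbols were 0.23 at 3 weeks and -0.22 at 6 months. Spindle partners made up 3 of the 6: Cdca8 of the chromosomal passenger complex (2.63, 2.44, 7.41 and 4.90 RPKM, difference 1.29), the kinetochore kinesin Cenpe (0.842, 0.800, 2.92 and 1.07, difference 1.12) and Prc1, which bundles the central spindle with Kif4 (0.878, 0.980, 3.10 and 1.08, difference 1.05). Under the median of ratios these 3 differences were 0.99, 0.87 and 0.79, none past 2-fold. The listed spindle partners Birc5, Tpx2, Incenp and Racgap1 had higher levels at 3 weeks than at E18 without passing 2-fold. Aurkb, of the same complex as Cdca8, went the other way without passing 2-fold, at 2.73, 2.67, 1.14 and 0.899 RPKM. The scaffold Mapk8ip1, which links kinesin-1 to kinases, had 5.62, 4.62, 1.19 and 3.08 RPKM and was lower at 3 weeks (-1.36), and the related scaffold Spag9 had 1.84, 2.42, 4.48 and 1.54 and was lower at 6 months (-1.11). Mapk8ip1 had -0.59 over ribosomal protein genes, and Spag9 -0.61 under the median of ratios and -0.89 over ribosomal protein genes, so neither call was kept there.

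The certainty of a level depends on how far the gene's sequence is its own. In 31 of the 41 members over 95% of the 50-base words of the annotated transcripts occurred in no other gene. These shares describe GENCODE vM21 models. The annotated exonic length was a multiple of the length recovered from the values in 6 of the 41 members. For the other members the sequence that was counted differs from the full annotated exons, so the shares are only a guide. The lowest unique shares after Kifc1 (60.3%), Kif3c (60.4%) and Kifc5b (62.6%) were those of Kif20a (74.8%, shared with Cdc23), Kifc3 (79.3%), Kif2a (80.3%, shared with Dimt1), Kif7 (83.9%) and Kif4 (85.5%, shared with Pdzd11). Exonic overlap with a gene on the opposite strand was annotated for 13 members. Whether the counting used strand is not given in the sources used here, so reads from such partners cannot be told apart.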

How the data were processed

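The deposited values are RPKM, which the authors scaled to gene length and library depth, per the file headers. Per the submitters' processing notes, TopHat2 and the build mm10 were used. How reads were counted, on which annotation and with what use of strand or multiple mapping, is not given in the sources used here. Per the labels' protocols, ribosomal RNA was depleted, spike-in RNA added and polyadenylated RNA selected before directional libraries were made.

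Reads behind the values were recovered from their steps, with a relative tolerance of 3e-09 for whole numbers. Whole reads and 1 length up to 200000 bases were found for 41 of 41 members. A factor common to all 4 libraries is lost in this step, which can widen an interval. Exact Poisson and Clopper-Pearson intervals at 95% cover counting error only. Differences used log2(RPKM + 1) for entries that reached 1 RPKM anywhere. The procedure was tested on simulated data. Every member was named or counted within its role, with Kifap3, the Klc genes, Cenpe and up to 3 other partners per direction. Members, role lists, partners and markers were chosen with earlier results of these data known. Gene models were those of GENCODE vM21, on the same assembly as mm10, and promoters were from RefSeq. Transcripts were aligned locally with Biopython 1.88, and Python 3.11.15 with SciPy 1.17.1 was used.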

Additional observations from a re-analysis of the deposited data

Results flagged for a closer look

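The 3 entries named as kinesin pseudogenes fall outside the rule for members, and each stood above 3 reads in at least 1 library. Kif4-ps, a transcribed processed copy on chromosome 12, had 0, 0.00704, 2.76 and 1.67 RPKM at the 4 stages in order of age, and its transcript was 80.3% identical to that of Kif4 over 3655 aligned bases. Kifc5c-ps, a copy on chromosome 10 that was 94.1% identical to Kifc1, had 0.758, 0.724, 0.278 and 0.214 RPKM. Kif22-ps, on chromosome 1, had 0.0389, 0.0589, 0.0445 and 0 RPKM.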

How the results depend on the processing

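No paired analysis was possible because each stage has 1 library, and no library could be left out of a comparison. No named gene past 2-fold changed sign under any alternative. Rescaling moved the median over all entries by up to 0.56 (3 weeks minus E18, ribosomal protein genes). From E14 to E18, the count of higher members was 0 with a minimum of 5 RPKM, at 4-fold and over ribosomal protein genes. At those settings 2.87%, 0.275% and 1.10% of all entries were higher. Lower members numbered 4 with a pseudocount of 0.1 and 1 under the median of ratios, against 4.12% and 1.77% of all entries. The spermatid and cilium median was 0.56 with a pseudocount of 0.1, and the mitotic median -0.14 under the median of ratios and -0.11 over ribosomal protein genes. From E18 to 3 weeks, higher members numbered 7 of 13 with a minimum of 5 RPKM. They numbered 5 at 4-fold, 8 under the median of ratios and 22 over ribosomal protein genes. At those settings, in the same order, 52.7%, 16.1%, 25.5% and 51.2% of all entries were higher. Lower members numbered 6 with a pseudocount of 0.1, and 0 with a minimum of 5 RPKM and at 4-fold. There was 1 after rescaling to an equal sum and over ribosomal protein genes. In that order of settings, 17.9%, 14.9%, 1.98%, 8.23% and 2.95% of all entries were lower. The transport median was 0.74 with a minimum of 5 RPKM and 0.91 over ribosomal protein genes. From 3 weeks to 6 months, higher members numbered 7 with a pseudocount of 0.1, 9 under the median of ratios and 8 over ribosomal protein genes. At those settings 14.3%, 17.2% and 15.7% of all entries were higher. Lower members numbered 8 with a pseudocount of 0.1, 0 at 4-fold and 0 under the median of ratios. At those settings 31.0%, 1.80% and 4.35% of all entries were lower. The mitotic median was -0.80 with a pseudocount of 0.1. A higher minimum and a 4-fold limit admit fewer genes by construction, and the cause of the other shifts was not tested. The other 88 recomputed counts and medians stayed within 1.5 times or within the interval of the median.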
